A study of Mus musculus with 5 samples.

Results

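The genes described here encode enzymes that carry pyruvate, glutamate and fatty acids into the tricarboxylic acid (TCA) cycle and run it. A list of 43 gene names was looked up in the deposited table of 12930 genes, and 40 were found, all with a value in every siRNA library. The table writes names in capitals (CS, PCX, ECHS1), and mouse spelling is used from here on. Idh1, Pdhx and Acaa2 were not analysed here. The list was set by enzyme function, with earlier results of these data known. Ratios were read in OG2 mouse embryonic stem cells in 3 groups. Libraries labelled siDhx30 (n = 2) came from cells given an siRNA against Dhx30, an RNA helicase gene. Those labelled siTfam (n = 2) came from cells given an siRNA against Tfam. The Tfam protein packages mitochondrial DNA and acts in its transcription. The third group, labelled NC (negative control), is 1 library. Per the labels, all cells were of the OG2 line, whose strain is labelled by CBA/CaJ, C57BL/6J and 129Sv/Jae. They spent 24 h in a medium with LIF and inhibitors, and then 36 h with 50 nM siRNA in a medium with 12.5 ng/ml bFGF and 20 ng/ml Activin A, a differentiation medium by the labels. All groups share this treatment, and the ratios do not show the state of the NC cells.

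In mitochondria, the pyruvate dehydrogenase complex turns pyruvate into acetyl-CoA, and citrate synthase joins acetyl-CoA to oxaloacetate. The cycle then releases carbon dioxide and hands electrons to the respiratory chain, part of which is encoded in mitochondrial DNA. Beta oxidation shortens fatty acids in repeated rounds of dehydrogenation, hydration, a further dehydrogenation and thiolysis, and feeds the same acetyl-CoA pool. Pluripotent stem cells are known to rely heavily on glycolysis and glutamine, and their use of pyruvate and fatty acids shifts as they leave the naive state.

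Each deposited value is a log2 ratio of 1 siRNA library to, as read here, the NC library, and every ratio below is siRNA over NC. The column headings do not state the direction. All 1574 values of the 842 genes with a missing value were negative as deposited, none was positive, and the signs were turned round on that ground. Every direction against NC rests on this reading, which leaves sizes as they are and turns the sign of the siDhx30 to siTfam differences as well. Dhx30 itself lay at -0.40 and -0.20 in the siDhx30 libraries, or 81.2% of NC, and Tfam at -0.28 and -0.02 in the siTfam libraries, or 90.2% of NC. limma gave adjusted p-values of 0.998 and 0.987, so neither knockdown was established at the RNA level. The table holds ratios alone, so read depth and expression level are unknown here. Of 20 pluripotency markers 7 had complete values, with medians from 0.02 to 0.06 in the 4 libraries, and Pou5f1, Sox2 and Nanog were not analysed here. Single markers differed. Esrrb, Dppa4 and Otx2 were above NC in every library (Otx2 from 0.33 to 0.63), and Dnmt3l was below it (-0.16 to -0.11). Tfcp2l1 lay at -1.14 and 1.71 in siTfam. Of 14 primitive endoderm markers 6 had complete values, with medians of -0.08 and -0.0053 in siDhx30, and -0.42 and -0.66 in siTfam. Their part in the results was not tested, and in bulk RNA fewer cells of a type and less RNA per cell cannot be told apart.

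The TCA cycle and fatty acid oxidation genes stayed near the NC level with both siRNAs. In siDhx30 against NC their median log2 ratio was -0.015 (19 higher, 21 lower), beside -0.012 over all 12088 genes tested. In siTfam against NC it was 0.055 (26 higher, 14 lower), beside -0.020 over all genes. The share of members higher was 47.5% in siDhx30, beside 48.1% of all genes. In siTfam the share was 65%, beside 47.3% of all genes. With trends on transcript length and GC content removed per library, the siTfam median was 0.0018, and without siTfam replicate 2 it was 0.022. In the siDhx30 libraries 28 of 40 genes lay within 0.25 of NC on the log2 scale in both replicates, or 70%, beside 36.5% of all genes. In the siTfam libraries the count was 27 of 40, or 67.5%, beside 34.3% of all genes. All 4 libraries stayed within 0.25 for 23 of 40, or 57.5%, beside 22.8% of all genes. Replicates also lay closer together than over all genes. The median gap between replicates was 0.10 in siDhx30 and 0.16 in siTfam for these genes, beside 0.23 and 0.24 over all genes. Over the 9257 protein-coding genes it was 0.20 and 0.21, and over 85 other genes of the same pathways, described below, 0.19 and 0.18. The median absolute mean ratio was 0.10 and 0.11 for members, 0.11 and 0.14 for those 85, and 0.18 in each siRNA for protein-coding genes. Closeness to NC was thus largely shared by other genes of these pathways. How far abundance, which is unknown, moves with these distances was not tested.

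No gene passed limma at an adjusted p of 0.05 in any of the 3 comparisons, so percent called was 0 for members and for all 12088 genes. At an unadjusted p under 0.05, limma gave 0 of 40 members in every comparison. That count rested on all libraries being kept. Without siDhx30 replicate 1 it was 1 in siDhx30 against NC (Acads) and 3 in siDhx30 against siTfam (Acads, Decr1 and Dld). Without siTfam replicate 1 it was 1 in siTfam against NC and 1 in siDhx30 against siTfam (Eci2 in both). The background in siDhx30 against NC was 2.56% of genes higher and 2.47% lower. In siTfam against NC it was 3.04% and 3.08%, and in siDhx30 against siTfam 1.29% and 1.5%. The smallest unadjusted p-values among the members were 0.137 for Echs1 in siDhx30 against NC, 0.148 for Sucla2 in siTfam against NC and 0.106 for Acadl in siDhx30 against siTfam (limma; adjusted p = 0.998, 0.926 and 0.999). The limma intervals bound what could have been missed. The 95% interval lay inside -1 to 1 on the log2 scale for 33 of 40 members in siDhx30 against NC, 35 in siTfam against NC and 35 in siDhx30 against siTfam, beside 54.1%, 53.1% and 68.4% of all genes. With a median limma SE of 0.20 against NC, shifts of the median size in these genes, 0.10 in siDhx30 and 0.11 in siTfam, were not detectable with these libraries. The labels do not say that replicates were separate cultures, so the p-values measure the spread between these libraries only, which may be technical.

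**Figure D1:**
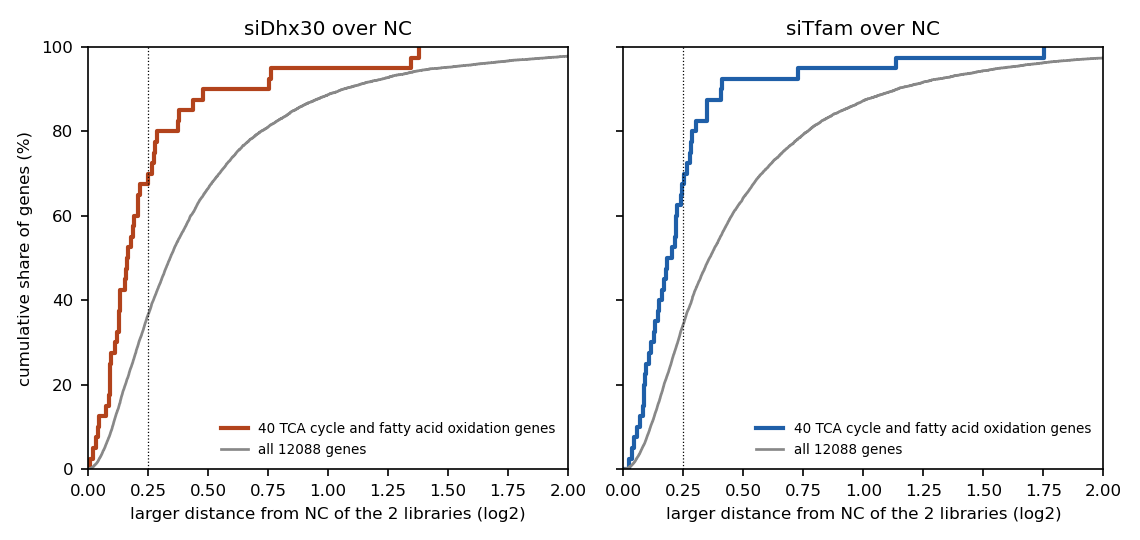
Cumulative share of genes (vertical axis, %) against the larger distance from NC of the 2 libraries of an siRNA (horizontal axis, absolute log2 ratio), for siDhx30 and siTfam. Coloured lines are the 40 TCA cycle and fatty acid oxidation genes and grey lines all 12088 genes; at the dotted line, 0.25, the coloured lines stand at 70% and 67.5% and the grey lines at 36.5% and 34.3%.

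As a second rule, a gene was counted where both libraries of an siRNA lay at least 0.25 from NC on the same side. In siDhx30 this held for 0 of 40 members above NC (background 11% of all genes) and for 2 below NC (background 12.2%), Echs1 and Eci2. In siTfam it held for 2 members above NC (background 12.1%), Sucla2 and Decr1, and for 0 below NC (background 12.8%). At a distance of 0.5 the rule held for 0 of 40 members in siDhx30 (background 4.77% above and 5.26% below NC) and for 0 in siTfam (background 5.34% above and 5.74% below). In all 4 libraries together it also held for 0 members (background 2.65% above and 2.79% below). Both siDhx30 libraries lay above NC for 12 of 40 members (background 32.1%) and below NC for 13 (background 34.9%). Both siTfam libraries lay above NC for 19 (background 32%) and below NC for 10 (background 34.4%). All 4 libraries, which share the NC library as denominator, were above NC for 11 members (background 20.1%) and below NC for 8 (background 22.4%).

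Promoter windows were searched for sites of factors known to act on mitochondrial genes. RefSeq windows on GRCm38.p6, from 250 bases before to 50 bases after the transcription start, were matched by symbol for 36 of the 40 members. All motifs were searched on both strands. The NRF1 site, a pattern of G, C and a fixed A with 1 free base, occurred in 4 of 36 members (11.1%), beside 11.6% of tested genes with a window. The GABPA site, CCGGAAGTG, occurred in 2 of 36 (5.56%), beside 4.94%. The oestrogen-related receptor site, TNAAGGTCA, occurred in 0 of 36, beside 0.947%, and the direct repeat of nuclear receptors (2 copies of AGGTCA around 1 free base) in 0 of 36, beside 0.036%. No member held matches to more than 1 of these motifs, and a match is only a match of letters. The stretches before the start that hold a match are shown, with the match in capitals, for the succinyl-CoA ligase gene Sucla2, which lay above NC in every library, and for a pair of electron transfer genes that lay near NC.
Sucla2: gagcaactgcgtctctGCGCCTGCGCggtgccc
Etfdh: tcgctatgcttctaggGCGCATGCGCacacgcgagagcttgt
Etfb: tggtcggtgttgcggcGCGCAGGCGCa
They lie at chr14:73552753-73552785 (plus strand), chr3:79628870-79628911 (minus strand) and chr7:43444045-43444071 (plus strand), and each is written 5′ to 3′ on the strand of its gene. The start is that of the RefSeq window. By the GENCODE coordinates used for genes in this text, the Sucla2 and Etfdh stretches lie inside the gene. The capitals of Sucla2 match the site on the other strand, those of Etfb on the strand shown, and those of Etfdh on both. All 4 ratios of Sucla2 lay above NC, while those of Etfdh and Etfb lay on both sides of it.

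At pyruvate entry, both genes of the decarboxylating subunit of the pyruvate dehydrogenase complex lay within 0.13 of NC. Pdha1 (ENSMUSG00000031299.10; GRCm38 chromosome X, 160122209 to 160138413, minus strand), the catalytic alpha subunit and the site of control by phosphorylation, had log2 ratios of -0.0033 and -0.0070 in siDhx30, and -0.02 and 0.02 in siTfam. Its mean was 99.6% of NC in siDhx30 and 100.2% in siTfam. Pdhb, its beta partner, lay at -0.02 and 0.03 in siDhx30, beside 0.02 and 0.13 in siTfam. Dlat, the acetyltransferase core, lay at 0.08 and 0.09 in siDhx30, beside 0.09 and 0.35 in siTfam. All 4 Dlat values were thus above NC, with 1 siTfam library apart from the rest. Dld, the lipoamide dehydrogenase shared with the alpha-ketoglutarate dehydrogenase complex, lay at -0.07 and 0.75 in siDhx30, beside 0.04 and 0.04 in siTfam. Its highest value came from siDhx30 replicate 2 alone. Exons of Pdha1 share 16.1% of their bases with exons of Map3k15 on the opposite strand, and the use of strand in counting is not given in the sources used here.

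Pyruvate carboxylase took the lowest ratios of the list, and they split by replicate and not by siRNA. Pcx (ENSMUSG00000024892.17; chromosome 19, 4510472 to 4621752, plus strand), which refills the cycle with oxaloacetate made from pyruvate, had log2 ratios of -0.21 and -1.38 in siDhx30, and of -0.05 and -1.75 in siTfam. The libraries numbered 2 were low with both siRNAs and those numbered 1 were near NC, so the siRNA groups overlapped. The mean was -0.79 (limma SE 0.92) in siDhx30 and -0.90 (SE 0.92) in siTfam, with limma adjusted p-values of 0.998 and 0.984. Only 4.58% of all genes had a larger gap between the siDhx30 replicates, and 2.29% between the siTfam replicates.

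**Figure D2:**
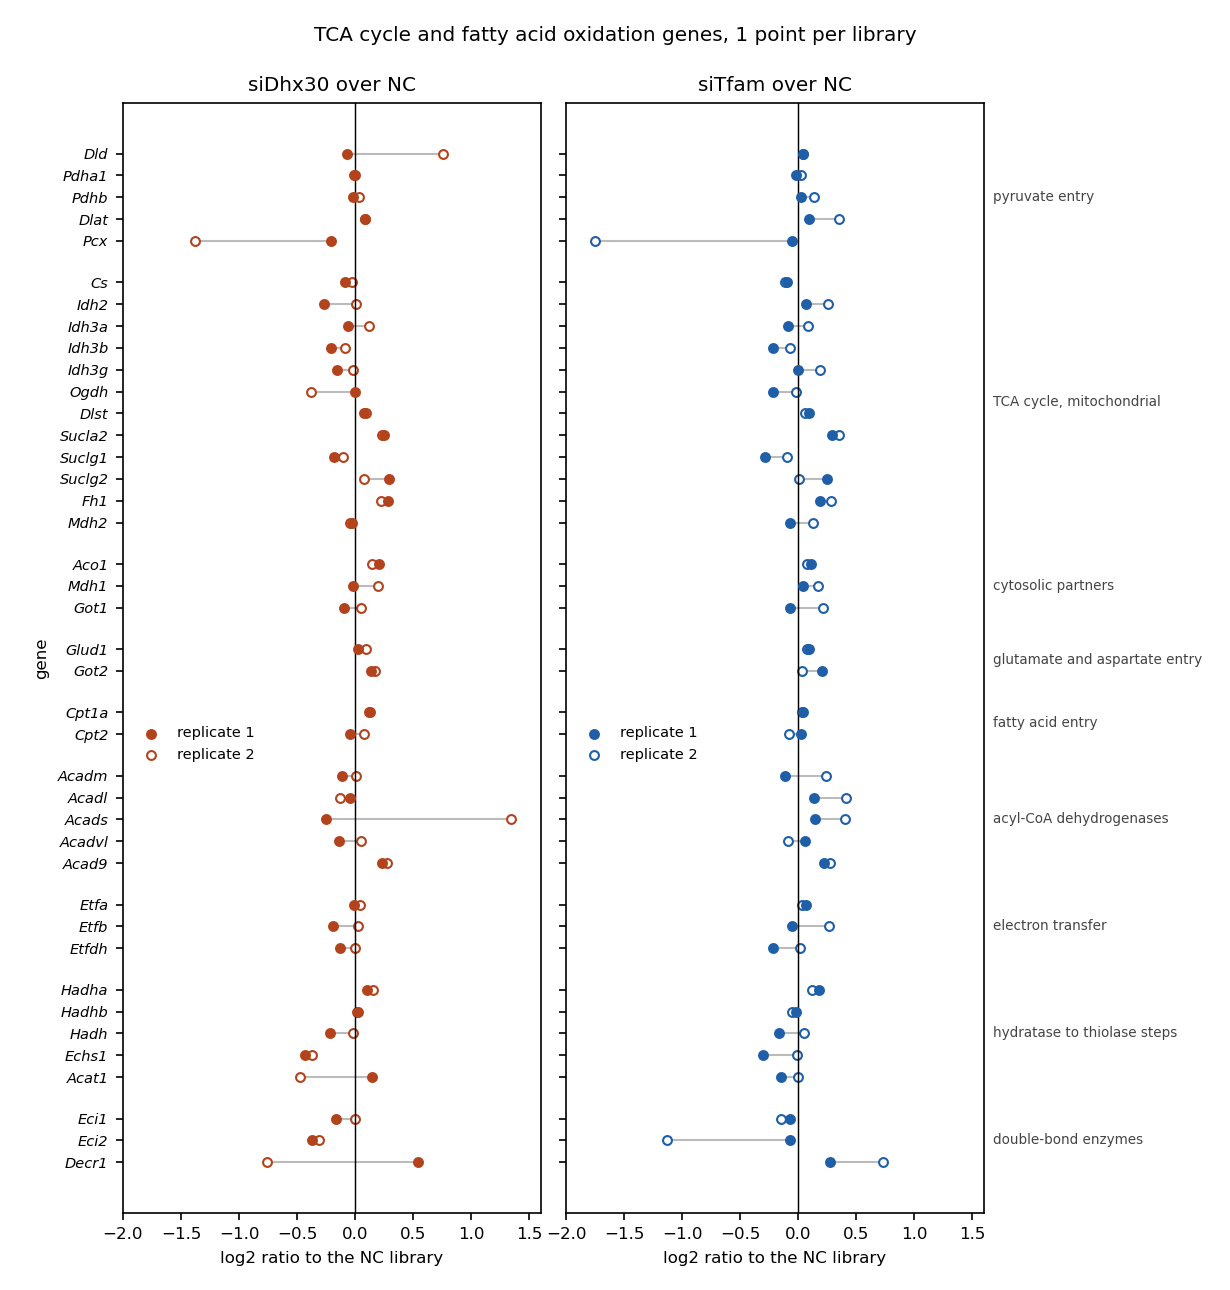
Log2 ratio to the NC library (horizontal axis) of each of the 40 genes (rows, grouped by role), with siDhx30 on the left and siTfam on the right; filled points are replicate 1, open points replicate 2, and the grey line joins them. Most points lie within 0.25 of NC; the open points of Pcx, at -1.38 and -1.75, and of Acads in siDhx30, at 1.34, lie furthest out.

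Within the mitochondrial TCA cycle, no step stood apart by the test. Of the 12 genes measured, 5 lay above NC and 7 below it in siDhx30, and 8 above and 4 below in siTfam. The shares above NC were 41.7% and 66.7%, beside 48.1% and 47.3% of all genes. Cs (ENSMUSG00000005683.8; chromosome 10, 128337734 to 128362479, plus strand), the citrate synthase of the entry step, had log2 ratios of -0.09 and -0.03 in siDhx30, and -0.10 and -0.12 in siTfam. All 4 were below NC and within 0.12 of it. The NAD+-dependent isocitrate dehydrogenase is built from 3 gene products. Its catalytic subunit gene Idh3a lay at -0.07 and 0.12 in siDhx30, beside -0.09 and 0.09 in siTfam. The regulatory subunit gene Idh3b was below NC in every library, at -0.21 and -0.09 in siDhx30, and -0.22 and -0.08 in siTfam. Of the 3 genes it alone kept 1 side throughout. The other regulatory subunit gene, Idh3g, lay at -0.16 and -0.02 in siDhx30, beside -0.0061 and 0.18 in siTfam. Idh2, the mitochondrial NADP+-dependent enzyme, lay at -0.27 and 0.01 in siDhx30, beside 0.06 and 0.25 in siTfam. The siDhx30 values of Idh2 were both lower than its siTfam values.

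The alpha-ketoglutarate dehydrogenase complex is built from Ogdh, Dlst and the Dld described above. Ogdh, the decarboxylating subunit, had log2 ratios of -0.0051 and -0.38 in siDhx30, and -0.21 and -0.02 in siTfam. Its value in siDhx30 replicate 2 was the lowest of the 4, and the groups overlapped. Dlst, the succinyltransferase core, had tightly grouped ratios of 0.08 and 0.09 in siDhx30, and 0.09 and 0.06 in siTfam.

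The subunits of succinyl-CoA ligase, which makes succinate and a nucleoside triphosphate, lay on opposite sides of NC. Sucla2 (ENSMUSG00000022110.13; chromosome 14, 73525319 to 73596142, plus strand), the ATP-forming beta subunit, had log2 ratios of 0.25 and 0.23 in siDhx30, and 0.29 and 0.35 in siTfam. Its mean was 118% of NC in siDhx30 and 125% in siTfam (limma SE 0.18 on the log2 scale in each, adjusted p = 0.998 and 0.926). With length and GC trends removed the means were 0.18 in siDhx30 and 0.22 in siTfam. Suclg2, the GTP-forming beta subunit, lay at 0.29 and 0.08 in siDhx30, beside 0.24 and 0.01 in siTfam. Suclg1, the alpha subunit that both beta subunits need, lay at -0.18 and -0.11 in siDhx30, beside -0.28 and -0.09 in siTfam. Each gene kept its side of NC in all 4 libraries. These ratios compare each gene with its own NC level and give no level of one subunit against another, and the difference between the subunits was not tested.

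At the last steps of the cycle, Fh1 lay above NC and Mdh2 close to it. Fh1 (ENSMUSG00000026526.14; chromosome 1, 175600374 to 175625635, minus strand), the fumarase, had log2 ratios of 0.28 and 0.22 in siDhx30, and 0.19 and 0.28 in siTfam. Its mean was 0.25 (limma SE 0.18, adjusted p = 0.998) in siDhx30 and 0.24 (SE 0.18, adjusted p = 0.974) in siTfam. Mdh2, the mitochondrial malate dehydrogenase, lay at -0.03 and -0.05 in siDhx30, beside -0.07 and 0.13 in siTfam.

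Cytosolic and mitochondrial partners of the malate-aspartate shuttle stayed within 0.25 of NC in every library. Mdh1, the cytosolic malate dehydrogenase, lay at -0.02 and 0.19 in siDhx30, beside 0.05 and 0.17 in siTfam. Got1, the cytosolic aspartate aminotransferase, lay at -0.10 and 0.05 in siDhx30, beside -0.07 and 0.22 in siTfam. Got2, its mitochondrial partner, was above NC in every library, at 0.14 and 0.17 in siDhx30, and 0.20 and 0.03 in siTfam. Glud1, which feeds glutamate carbon into the cycle as alpha-ketoglutarate, was also above NC throughout, at 0.03 and 0.09 in siDhx30, and 0.09 and 0.07 in siTfam. Aco1, the cytosolic aconitase that doubles as an iron-regulated RNA-binding protein, lay at 0.21 and 0.15 in siDhx30, beside 0.11 and 0.07 in siTfam. None of these means exceeded 1 limma SE.

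Fatty acid entry by the carnitine shuttle was near NC. Cpt1a (ENSMUSG00000024900.5; chromosome 19, 3322334 to 3385733, plus strand), the outer-membrane transferase that limits fatty acid entry, had log2 ratios of 0.13 and 0.12 in siDhx30, and 0.04 and 0.03 in siTfam. Its siDhx30 values were the higher pair, and the difference between siRNAs was 0.09 (95% interval -0.31 to 0.49). Cpt2, the inner-membrane transferase, lay at -0.04 and 0.07 in siDhx30, beside 0.02 and -0.08 in siTfam.

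The acyl-CoA dehydrogenases, which start each round of beta oxidation for chains of different length, included the widest gap between siDhx30 replicates in the list. Acadvl, for very long chains, lay at -0.14 and 0.05 in siDhx30, beside 0.06 and -0.08 in siTfam. Its exons share 42.9% of their bases with those of Dvl2 on the opposite strand. Acadl, for long chains, lay at -0.05 and -0.13 in siDhx30, beside 0.14 and 0.41 in siTfam. Acadm, for medium chains, lay at -0.11 and 0.0096 in siDhx30, beside -0.12 and 0.24 in siTfam. Acads, for short chains, lay at -0.25 and 1.34 in siDhx30, beside 0.14 and 0.41 in siTfam. The Acads mean in siDhx30, 0.55 (limma SE 0.73, adjusted p = 0.998), rested on replicate 2, since replicate 1 lay below NC. Only 2.04% of all genes had a larger gap between the siDhx30 replicates. Acad9, a related dehydrogenase whose protein is better known as an assembly factor of respiratory complex I, had log2 ratios of 0.23 and 0.27 in siDhx30, and 0.22 and 0.28 in siTfam. Its mean was 119% of NC with each siRNA, with limma adjusted p-values of 0.998 and 0.967. The exons of Acad9 share 6.8% of their bases with those of Gm43079 on the same strand.

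Electron transfer from beta oxidation to ubiquinone showed no shared direction. Etfa, the alpha subunit of electron transfer flavoprotein, lay at -0.01 and 0.04 in siDhx30, beside 0.07 and 0.03 in siTfam. Etfb, the beta subunit, lay at -0.19 and 0.02 in siDhx30, beside -0.05 and 0.26 in siTfam. The exons of Etfb share 53% of their bases with Gm45233 on the same strand, so its count is uncertain. Etfdh, the membrane oxidoreductase that passes the electrons on, lay at -0.13 and 0.0015 in siDhx30, beside -0.22 and 0.02 in siTfam.

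Among the hydration to thiolysis steps, Echs1 had the lowest siDhx30 ratios that held in both replicates. Echs1 (ENSMUSG00000025465.13; chromosome 7, 140105710 to 140116476, minus strand), the short-chain enoyl-CoA hydratase, had log2 ratios of -0.44 and -0.38 in siDhx30, and -0.30 and -0.0095 in siTfam. All 4 values were below NC, and both siDhx30 values were lower than both siTfam values. The mean was 75.5% of NC in siDhx30 (log2 mean -0.41, limma SE 0.22, adjusted p = 0.998), and 89.7% of NC in siTfam (log2 mean -0.16, SE 0.22, adjusted p = 0.987). Over all genes 13.3% had a lower mean ratio in siDhx30 and 32.2% in siTfam. The trifunctional protein genes lay closer to NC. Hadha, its hydratase and long-chain dehydrogenase subunit, lay at 0.10 and 0.15 in siDhx30, beside 0.18 and 0.12 in siTfam. Hadhb, its thiolase subunit, lay at 0.02 and 0.01 in siDhx30, beside -0.02 and -0.06 in siTfam. Hadh, the short-chain 3-hydroxyacyl-CoA dehydrogenase, lay at -0.21 and -0.02 in siDhx30, beside -0.16 and 0.05 in siTfam. All 4 Hadha values were above NC, while Hadhb and Hadh crossed it. Acat1, the acetoacetyl-CoA thiolase, had replicates on opposite sides in siDhx30, at 0.14 and -0.48, and lay at -0.14 and -0.0059 in siTfam.

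The enzymes that deal with the double bonds of unsaturated fatty acids varied most among the groups of the list. Eci1, an enoyl-CoA isomerase, was slightly below NC in all 4 libraries, at -0.16 and -0.0059 in siDhx30, and -0.07 and -0.15 in siTfam. Eci2, a second isomerase found in mitochondria and peroxisomes, lay at -0.38 and -0.31 in siDhx30, beside -0.07 and -1.13 in siTfam. The low Eci2 mean in siTfam, -0.60 (limma SE 0.50, adjusted p = 0.974), came mostly from replicate 2. Decr1, the dienoyl-CoA reductase, lay at 0.54 and -0.76 in siDhx30, beside 0.27 and 0.73 in siTfam. Its siDhx30 replicates lay on opposite sides of NC and its siTfam replicates both above, and the difference between siRNAs was -0.61 (95% interval -2.05 to 0.83; limma adjusted p = 0.999). Over these 3 genes the median limma SE against NC was 0.50, beside 0.20 over the 40 members and 0.25 over all genes.

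**Figure D3:**
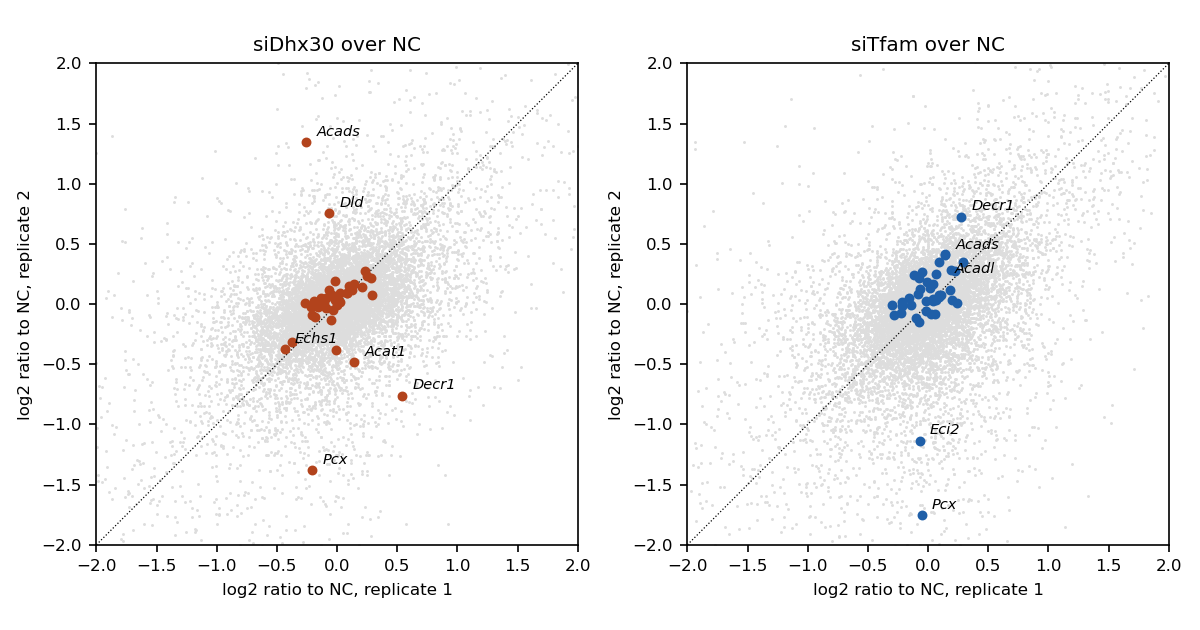
Log2 ratio to NC in replicate 1 (horizontal axis) against replicate 2 (vertical axis) for siDhx30 (left) and siTfam (right); coloured points are the 40 genes, grey points all genes within the axes, and the dotted line marks equal values. Acads, Decr1, Dld and Pcx lie far from the line in siDhx30, and Pcx and Eci2 in siTfam, while Echs1 in siDhx30 lies near it at -0.44 and -0.38.

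The comparison of siDhx30 with siTfam has 2 libraries on each side. The NC library cancels from it if every column is a plain ratio to that library, which was not checked. Over the 40 members the median difference, siDhx30 minus siTfam, was -0.014 (18 higher, 22 lower), beside -0.0015 over all genes. The share of members higher was 45%, beside 49.8% of all genes. Removing the length and GC trends gave a median of 0.024. Both siDhx30 libraries lay above both siTfam libraries for 4 of 40 members (background 14.7%) and below them for 6 (background 14.3%). The 4 were Cs, Aco1, Hadhb and Cpt1a, with differences from 0.05 to 0.09. The 6 were Idh2, Idh3g, Sucla2, Dlat, Acadl and Echs1, with differences from -0.37 for Acadl to -0.08 for Sucla2. The Acadl difference had a 95% interval of -0.85 to 0.12, and that of Idh2, -0.29, an interval of -0.80 to 0.23 (limma adjusted p = 0.999 for both). The Echs1 difference was -0.25 with an interval of -0.74 to 0.25. Some genes gave nearly equal means with both siRNAs, such as Acad9 at a difference of 0.0015 (interval -0.40 to 0.41) and Idh3b at -0.0012 (interval -0.44 to 0.44). Those intervals still allow differences of about 0.4 on the log2 scale in either direction.

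**Figure D4:**
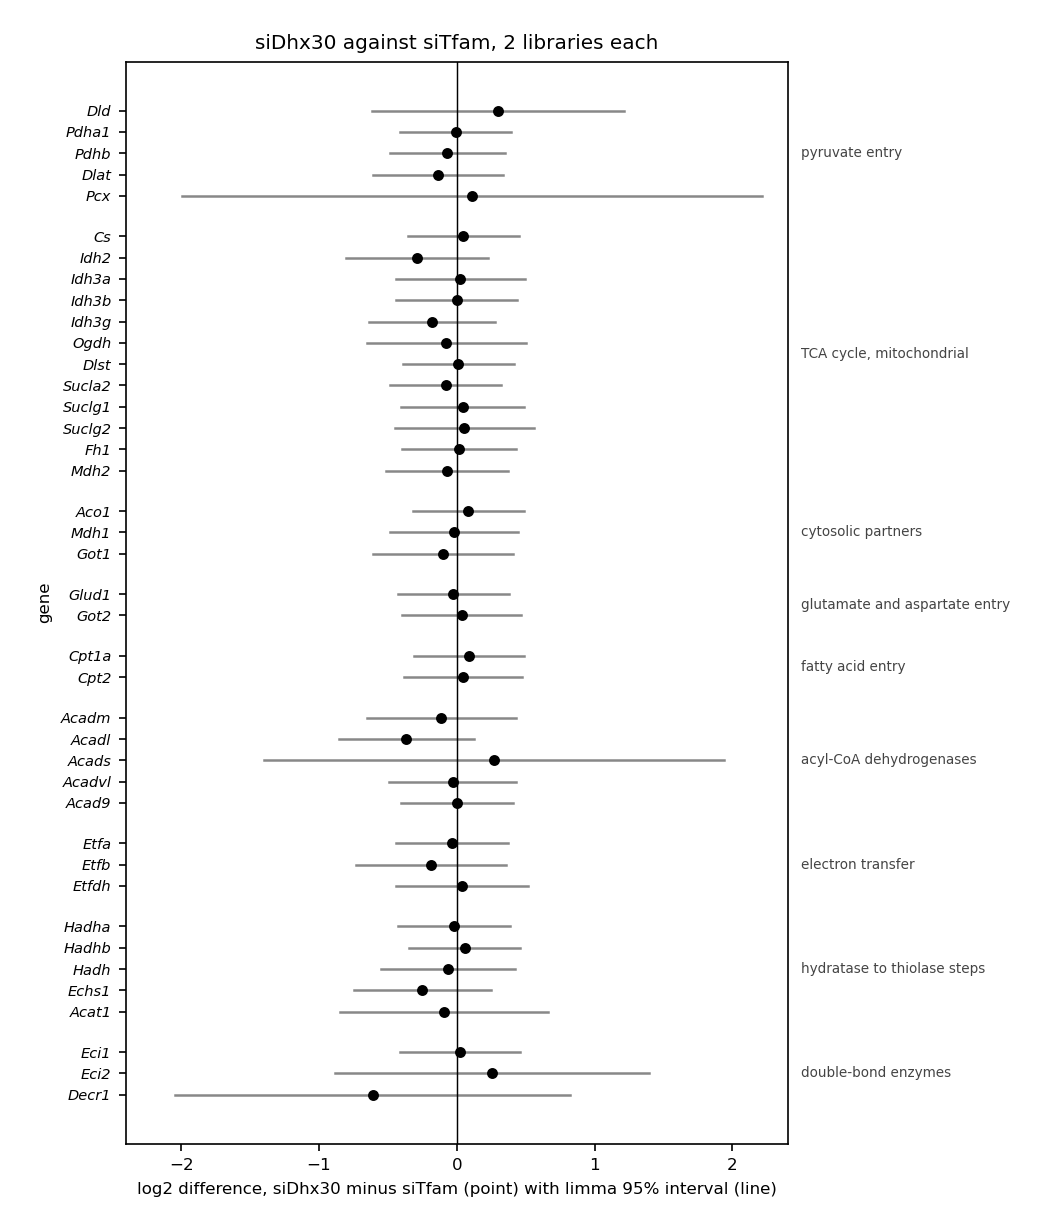
Log2 difference, siDhx30 minus siTfam (horizontal axis), for each of the 40 genes (rows, grouped by role), with the limma 95% interval as a line. Every interval includes 0; the widest belong to Pcx, Acads and Decr1, and the Acadl interval, -0.85 to 0.12, reaches least far above 0.

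Other genes of the same pathways were looked up as well. Of 111 further genes, 85 had complete values, with a median of 0.0057 in siDhx30 against NC and 0.044 in siTfam against NC. None passed limma at an adjusted p of 0.05. Both siDhx30 libraries were at least 0.25 above NC for 6 of them and below for 1, and both siTfam libraries for 7 above and 6 below, against the backgrounds given above. All 4 libraries lay at least 0.25 above NC for 3 genes (background 6.01%) and below it for 1 (background 6.71%).

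The 3 genes above NC act at the edges of the cycle and of fatty acid use. The 4 ratios of a gene share the 1 NC library, so an error in its NC value would move all 4 together. Sdhaf4, an assembly factor of succinate dehydrogenase, had log2 ratios of 2.18 and 2.30 in siDhx30, and 3.33 and 2.31 in siTfam (limma adjusted p = 0.691 and 0.535). Bdh1, the ketone body enzyme 3-hydroxybutyrate dehydrogenase, lay at 0.54 and 0.72 in siDhx30, beside 1.03 and 1.12 in siTfam (limma adjusted p = 0.92 and 0.568). Slc25a20, the carnitine-acylcarnitine carrier that works between Cpt1a and Cpt2, lay at 0.41 and 0.28 in siDhx30, beside 0.52 and 0.47 in siTfam. The gene below NC was Ppard, a nuclear receptor that acts on fatty acid oxidation genes, at -0.31 and -0.46 in siDhx30, and -0.50 and -0.27 in siTfam. By contrast, Sdha, the catalytic subunit of succinate dehydrogenase, lay at 0.06 and 0.12 in siDhx30, beside 0.11 and 0.09 in siTfam.

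Other genes of the cycle, ketone body use and pyruvate supply were mixed. D2hgdh, which turns D-2-hydroxyglutarate into alpha-ketoglutarate, was above NC throughout, at 0.40 and 0.14 in siDhx30, beside 0.74 and 0.44 in siTfam. Oxct1, which activates ketone bodies for use, was below NC throughout, at -0.26 and -0.20 in siDhx30, beside -0.11 and -0.17 in siTfam. Bdh1 and Oxct1, which act in 1 pathway, thus lay on opposite sides of NC. Mpc1 and Mpc2 form the mitochondrial pyruvate carrier. Mpc1 lay at 0.09 and -0.03 in siDhx30, beside 0.38 and 0.20 in siTfam, and Mpc2 at -0.09 and -0.28 in siDhx30, beside -0.26 and -0.45 in siTfam.

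Among the genes of glutamine use, Gls2, a glutaminase, was below NC throughout, at -0.39 and -0.15 in siDhx30, beside -0.36 and -0.16 in siTfam. Me1, the cytosolic malic enzyme, was also below NC, at -0.14 and -0.09 in siDhx30, beside -0.25 and -0.28 in siTfam. Glul, which makes glutamine from glutamate, was above NC, at 0.14 and 0.15 in siDhx30, beside 0.24 and 0.20 in siTfam. These genes kept their sides in all 4 libraries without reaching 0.25 in all of them. Slc25a22, a mitochondrial glutamate carrier, lay at -0.20 and -0.21 in siDhx30, beside -0.31 and -0.42 in siTfam. Slc25a1, the citrate carrier, lay at -0.67 and -0.20 in siDhx30, beside -0.61 and -0.17 in siTfam, lower in the libraries numbered 1 with both siRNAs. Me3 and Cpt1b had values in only 2 of the 4 libraries and were left out of the counts; their side of NC is fixed by the reading of the sign.

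Among the regulators, Esrra, whose nuclear receptor acts on TCA cycle and fatty acid oxidation genes, lay at 0.49 and 0.66 in siDhx30, beside 0.48 and 0.16 in siTfam. Nrf1, a transcription factor gene of mitochondrial function, lay at 0.04 and 0.10 in siDhx30, beside 0.18 and 0.07 in siTfam. The 5 measured genes of fatty acid synthesis had a median of 0.07 in siDhx30 against NC and of -0.19 in siTfam against NC. The mean was above NC for 3 of the 5 in siDhx30, beside 48.1% of all genes, and for 0 of the 5 in siTfam, beside 47.3% of all genes. Fasn, the fatty acid synthase, lay at -0.26 and 0.06 in siDhx30, beside -0.36 and -0.10 in siTfam. Elovl5, a fatty acid elongase, was above NC in siDhx30, at 0.21 and 0.10, and below it in siTfam, at -0.25 and -0.32. Sdha was named after its values were seen. The other further genes fell under rules of size or role, as did Acacb of fatty acid synthesis and Dhtkd1 of the cycle. Acacb lay at -0.48 and 0.05 in siDhx30, beside -0.34 and 0.07 in siTfam. Dhtkd1 lay at 0.41 and 0.37 in siDhx30, beside 0.15 and 0.05 in siTfam.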

How the data were processed

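RNA-seq libraries of mouse embryonic stem cells were made by the submitters from fragmented, DNase-treated total RNA with a template-switching kit and read as pairs. Per the submitters' processing notes, the tools were DESeq2, featureCounts, HISAT2 and bcl2fastq and the genome GRCm38; the sources used here do not give settings or strandedness. Per the file headers, the values the authors deposited are log2 fold changes, 1 column for each siRNA library. Signs were turned to siRNA over NC. Of 12930 gene names, 12660 matched GENCODE M21 symbols, and the 12088 genes with 4 values were tested. The limma fit (limma 3.58.1, R 4.3.3) entered NC as zeros, had 3 group means and 2 residual degrees of freedom, with robust moderation (prior degrees of freedom 2.02) and Benjamini-Hochberg adjustment over all genes. The single NC value was given the spread of the other groups. A check of the test on simulated data drew libraries independently, so it does not cover any structure shared by same-numbered libraries. Members and lists were chosen with earlier results of these data known.

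Values are given for all 40 members. Those named by rule were entry and control steps, the 4 highest and 4 lowest members of each comparison, and cytosolic and mitochondrial pairs. Further genes were those at least 0.25 from NC in all 4 libraries. Others came from the 3 per described list with the largest mean distance from NC. Alternatives left out each siRNA library, used no robust moderation, kept genes with a missing value, centred each library, removed length and GC trends (9257 protein-coding genes), used a replicate block, or set the distance at 0.5. Summaries used Python 3.11.15 with pandas 2.3.3 and numpy 2.4.6, and figures matplotlib 3.10.9.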

Additional observations from a re-analysis of the deposited data

Results flagged for a closer look

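For 2 of 40 members both siDhx30 libraries lay on one side of NC and both siTfam libraries on the other, which 4.89% of all genes did. Acadl, the long-chain acyl-CoA dehydrogenase gene, was below NC in siDhx30 and above it in siTfam, a difference of -0.37 (limma SE 0.18, unadjusted p = 0.106, adjusted p = 0.999). Hadhb, the thiolase subunit gene of the trifunctional protein, was above NC in siDhx30 and below it in siTfam, a difference of 0.056 (limma SE 0.14, adjusted p = 0.999).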

How the results depend on the processing

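No gene passed limma at an adjusted p of 0.05 in any comparison under any alternative run. At an unadjusted p under 0.05 limma gave 609 genes in siDhx30 against NC, 739 in siTfam against NC, and 337 between the siRNAs. The last count was 921 without siTfam replicate 1, 665 without siDhx30 replicate 1 and 566 with the replicate block. The labels give same-numbered libraries only a number in common. Their deviations correlated at 0.25 across 12088 genes, 0.31 across the 40 members and -0.06 without Pcx. If every column is a plain ratio to NC, NC cancels from these deviations. The source of the correlation was not tested. The block is balanced, so it cannot move the differences themselves, and the members' median of -0.014 is the same by construction. Leaving out a library gave a members' median of -0.04 to 0.03 in siDhx30 against NC, 0.022 to 0.055 in siTfam against NC, and -0.055 to 0.0060 in siDhx30 against siTfam. With length and GC trends removed the siTfam median was 0.0018, the siDhx30 to siTfam median 0.024, and 1 member, not 2, lay at least 0.25 above NC in both siTfam libraries; the cause was not tested. At a distance of 0.5 the counts of 2 below NC in siDhx30 and 2 above NC in siTfam each became 0. Of 675 values of 27 named members under alternatives, 48 moved by more than the spread between replicates and 63 changed sign, 50 of them among the 324 with a library left out. Leaving out 1 of 2 replicates always moves a mean against NC by less than that spread. Acads in siDhx30 went from 0.55 to -0.25 without replicate 2 and did not count as moved. Dropping robust moderation, keeping genes with a missing value or the block cannot move these values. Nor can leaving out a library of the other siRNA move a value against NC, and the 324 include such fits. The counts of 48, 63 and 50 are therefore no measure of stability. With a library left out, 4 named members reached an unadjusted limma p under 0.05, each in fits where the remaining library stood alone: Acads (0.016 against NC), Decr1 and Dld without siDhx30 replicate 1, and Eci2 (0.016 against NC) without siTfam replicate 1. Their adjusted limma p-values ran from 0.454 to 0.877. Depth is unknown.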
